A study of Vitis vinifera with 6 samples.

Results

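The genes described here were on in leaf tissue and silent, or nearly so, in embryogenic callus (EC) of the grapevine cultivar Chardonnay. A gene was taken where it had at most 3 raw counts in each of the 3 EC libraries and at least 200 raw counts in each of the 3 leaf libraries. Identifiers starting VIT_216s0100g or VIT_210s0042g were left out by the same rule, which removed 1 gene. This gave 162 genes among the 31843 gene rows of the table, or 2.01% of the 8051 genes outside those prefixes that had at least 200 counts in each leaf library. The counts of all 6 libraries chose the genes, so the difference between the tissues in these genes is a description and carries no test.

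The study sequenced ribosome-depleted RNA from EC and leaf of Chardonnay vines without genetic modification, with 3 libraries per tissue. EC was raised from anthers and grown on solid medium in the dark, and the material of several Petri dishes was pooled per sample. Leaf samples pooled young leaves of the same vines. Growth in the dark and in culture went with EC throughout, so tissue, light and culture cannot be told apart in this design. Replicates were numbered 1 to 3 in each tissue, and the labels do not say which dishes or leaves a number stands for. In bulk tissue, fewer cells of a type and less RNA per cell cannot be told apart either.

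A leaf is built of differentiated cells that photosynthesise, move water and sugars, and defend a surface open to light, insects and microbes. Embryogenic callus is a mass of dividing, dedifferentiated cells that can form somatic embryos. Genes that are read in only one of such tissues are usually under tissue-specific promoters or lie in silenced chromatin in the other, and plant gene families often sit as tandem copies that share such control. The files name genes by V2.1 identifiers alone. None of the identifiers was found in the RefSeq table used here (0 matches), so no function is given for any gene and the tissue labels were not checked against marker genes. In each identifier the 2 digits after VIT_2 give the chromosome, the digits after s name a scaffold, and the number after g gives the order along it.

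The libraries held 22280342 to 24209752 counted reads in EC and 13123072 to 23642329 in leaf, the lowest being leaf replicate 3. The study listed more sequenced read pairs for leaf replicate 3 than for leaf replicate 2. Of the RNA libraries, leaf replicate 3 had the lowest shares of mapped and of properly paired reads on the reference genome used. Why it differed was not tested. A count of 3 was worth 0.124 to 0.135 reads per 1000000 counted reads (RPM) in EC, 0.127 and 0.137 RPM in leaf replicates 1 and 2, and 0.229 RPM in leaf replicate 3. The same 200 counts therefore asked for a higher RPM in leaf replicate 3 than in the other leaf libraries. Leaf replicate 3 also stood apart from the other leaf libraries in its pattern of expression, so values are given for each leaf library, and the set found without leaf replicate 3 is described as well.

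The 162 genes together held 121, 123 and 111 counts in EC replicates 1, 2 and 3, against 289414, 261473 and 206591 counts in leaf replicates 1, 2 and 3. In RPM these sums were 5.36, 5.52 and 4.58 in EC, against 12241, 11932 and 15743 in leaf. They made up 1.22%, 1.19% and 1.57% of all counted reads of the leaf libraries. No count at all was found in 82, 84 and 90 of the genes in EC replicates 1, 2 and 3. The limit of 3 counts keeps these EC values close together, so they say nothing of how well the EC replicates agree.

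**Figure D1:**
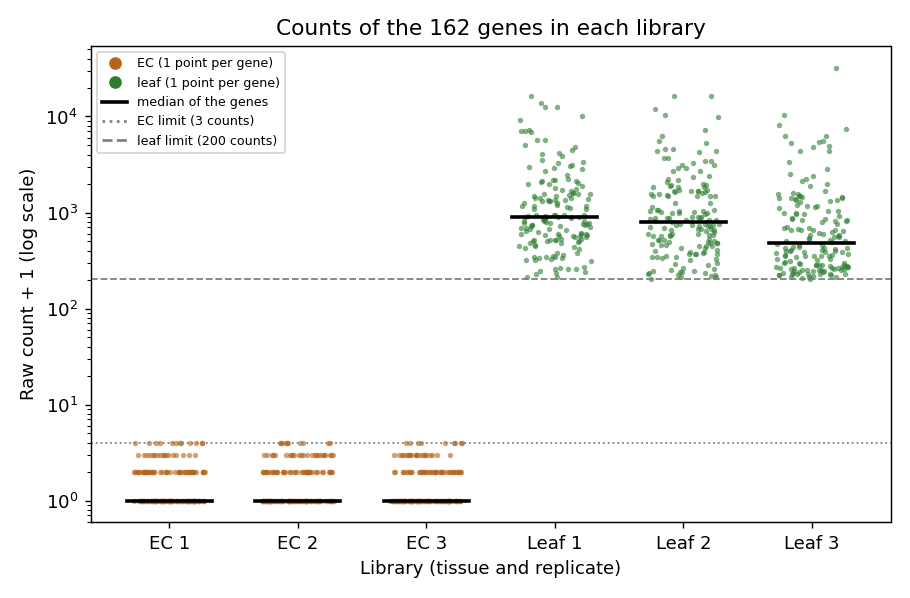
Raw count + 1 of each of the 162 genes (log scale, vertical) in each library (horizontal), with EC in brown, leaf in green and the median of the genes as a black bar. The EC points lie at 0 to 3 counts with a median of 0, and the leaf medians are 890, 803 and 477 counts in replicates 1, 2 and 3; the dotted and dashed lines are the limits of 3 and 200 counts that chose the genes.

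Over the 3 EC libraries, 39 of the 162 genes had no count, 32 had 1 count in all, 27 had 2, 28 had 3, and 36 had more than 3. The highest sum was 8 counts, in VIT_207s0005g04110. A count of 0 allows up to 3 counts in a library, which is 0.130 RPM as the mean of the EC libraries. Against that floor, taken per library, the 39 genes without a count were at least 104-fold to at least 1625-fold lower in EC, with a median bound of 239-fold. For the 123 genes with an EC count, the mean leaf RPM was 139 to 24384 times the pooled EC RPM, with a median of 1412. These bounds and ratios cover counting error only and depend on how strongly a gene was read in leaf. Without leaf replicate 3 the bounds ran from 76.5-fold to 2276-fold and the ratios from 109 to 13837, and the mean leaf RPM moved by over 1.5 times in 35 of the 162 genes.

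Among the genes with no EC count, VIT_214s0066g00070 had the highest level in leaf. It had 0 counts in each EC library, against 7299, 6249 and 552 counts in leaf replicates 1, 2 and 3. This put its level in EC at least 1625-fold lower. VIT_215s0048g02500 came next, with 0 counts in each EC library against 1329, 1074 and 6270 counts in leaf. Its level was at least 1489-fold lower in EC, or at least 403-fold without leaf replicate 3. These 2 genes had their high values in different leaf libraries, the first in replicates 1 and 2 and the second in replicate 3.

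The EC limit cut a continuous range. Of the 8051 genes with at least 200 counts in each leaf library, 39 had a highest EC count of 0, 57 of 1, 41 of 2, 25 of 3, 18 of 4 and 19 of 5, and 53 genes had one of 6 to 10. A further 192 genes had a highest EC count of 11 to 50 and 417 had one of 51 to 199, and in 7190 genes (89.3%) it was 200 or more. Genes with a highest EC count under 200 were thus a small part. Within that part each count from 0 to 3 held more genes than a count of 4 or 5 did.

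Just outside the EC limit, with a highest EC count of 4, VIT_210s0116g00560 had 4, 4 and 3 counts in EC against 24689, 26031 and 276 in leaf. VIT_204s0008g04050 had 4, 3 and 4 counts in EC against 26124, 22610 and 1121 in leaf. VIT_218s0001g08270, VIT_219s0014g03700 and VIT_202s0025g02500 followed, with lowest leaf counts of 1110, 2267 and 928. The first pair had more reads in leaf replicates 1 and 2 than any gene inside the rule.

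Just inside the leaf limit, VIT_218s0089g00460 had 1, 0 and 0 counts in EC against 212, 200 and 250 in leaf. The other genes with the lowest leaf counts were VIT_211s0037g00830 (lowest count 203), VIT_203s0038g03410 (207), VIT_208s0040g00800 (211) and VIT_213s0067g00110 (211). Just outside it, VIT_212s0028g04000 had 0 counts in each EC library against 199, 235 and 731 in leaf. VIT_205s0062g01120, VIT_212s0059g00470 and VIT_216s0013g00890 had a lowest leaf count of 197 each, and VIT_201s0011g01780 had one of 195. Another 132 genes had at most 3 counts in each EC library and a lowest leaf count of 100 to 199, and 57 of the 162 genes had a lowest leaf count under 300.

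In leaf the genes spanned a wide range of levels. Mean leaf RPM was 12.4 to 1059 with a median of 43.0 and quartiles of 25.9 and 83.0, so most were read at a moderate level. The other 7889 genes with at least 200 counts in each leaf library had a median of 49.8 RPM and quartiles of 30.2 and 89.4. The 162 genes were therefore spread over much the same range as other genes on in leaf. Above 100 RPM stood 33 of them, above 200 RPM 13 and above 500 RPM 3. Of all gene rows, 1 of the 162 was among the 100 with the highest mean leaf RPM and 25 were among the highest 1000. The 10 highest of the 162 genes carried 32.5% of their summed mean leaf RPM.

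VIT_213s0019g04140 had the highest mean level. It had 1, 2 and 0 counts in EC, against 9142, 7201 and 32314 counts in leaf replicates 1, 2 and 3. Its level in leaf was 1059 ± 1216 RPM (SD, n = 3), and the SD exceeds the mean because leaf replicate 3 stood at 2462 RPM against 387 and 329 RPM in leaf replicates 1 and 2. Its rank among all gene rows by mean leaf RPM was 69. The mean leaf level was 24384 times the pooled EC level (95% exact Poisson interval of the 3 EC counts, 8344 to 118241). Without leaf replicate 3 its mean was 358 RPM, 8233 times the pooled EC level (2817 to 39924), and it ranked 6 among the 162 genes. Of the 10 highest genes 6 were also among the 10 highest without leaf replicate 3, and VIT_208s0007g02240 was then first at 720 RPM.

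VIT_208s0007g02240 was second, with 3, 2 and 1 counts in EC against 16409, 16355 and 4415 in leaf. Its level was 592 ± 223 RPM in leaf (SD, n = 3), lowest in leaf replicate 3. VIT_219s0014g00160 had 2, 2 and 0 counts in EC against 13736, 9797 and 7430 in leaf. At 581, 447 and 566 RPM, it was the one of the 10 highest genes whose leaf libraries lay closest together. VIT_209s0018g01800 had 3, 1 and 2 counts in EC against 12444, 16256 and 272 in leaf, and so came into the set narrowly through leaf replicate 3.

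VIT_214s0083g00260 had 3, 0 and 0 counts in EC against 12510, 10247 and 1177 in leaf. VIT_218s0001g10040 had 2, 2 and 0 counts in EC against 10132, 11980 and 984 in leaf. Both were lowest in leaf replicate 3, like VIT_208s0007g02240 and VIT_209s0018g01800. VIT_204s0008g05640 was the reverse, with 1, 1 and 0 counts in EC against 1159, 1024 and 10349 in leaf. VIT_200s0181g00180 shared that pattern, with 1, 0 and 0 counts in EC against 1169, 722 and 8105 in leaf. Without leaf replicate 3 these last 2 genes averaged 47.9 and 41.2 RPM in leaf and ranked 65 and 77 among the 162 genes.

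VIT_200s0386g00050 had 2 counts in each EC library against 4118, 3420 and 4926 in leaf. VIT_208s0007g01570 had 2, 1 and 0 counts in EC against 4774, 3686 and 4337 in leaf. These last genes had like counts in all leaf libraries, and since leaf replicate 3 held fewer counted reads they were higher there in RPM, at 375 and 330.5.

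**Figure D2:**
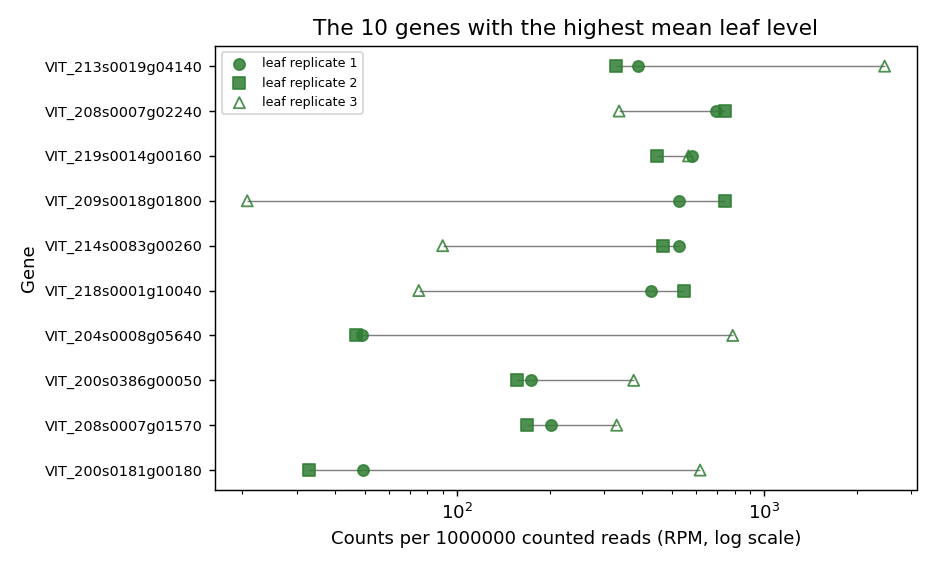
RPM (log scale, horizontal) of the 10 genes with the highest mean leaf level (rows, highest at the top) in leaf replicates 1, 2 and 3, with a grey line over the range of each gene. Filled circles and squares, for replicates 1 and 2, lie close together, and the open triangle of replicate 3 is far to the right for VIT_204s0008g05640 and far to the left for VIT_209s0018g01800; EC is not drawn because it had at most 3 counts.

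Leaf replicates 1 and 2 agreed well over the 162 genes and leaf replicate 3 did not. Between leaf replicates 1 and 2 the log2 RPM correlated across the 162 genes with a Pearson's r of 0.945, against 0.991 over the 7889 other genes on in leaf. With leaf replicate 3 the r was 0.420 for replicate 1 and 0.390 for replicate 2, against 0.677 and 0.648 over the other genes. Genes share their libraries and are not independent replicates, so these values carry no test. Leaf replicates 1 and 2 differed by more than 2-fold in 8 of the 162 genes (4.94%), against 0.152% of the other genes. The widest of these was VIT_204s0008g04060, with 0, 1 and 0 counts in EC against 3897, 530 and 392 in leaf.

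Relative to the mean of leaf replicates 1 and 2, leaf replicate 3 was over 2-fold higher in RPM in 53 genes, over 2-fold lower in 31 and within 2-fold in 78. Among the other genes on in leaf, 11.1% were over 2-fold higher and 21.9% over 2-fold lower. Of the 162 genes 19.1% lay beyond 4-fold, against 6.43% of the other genes. The median log2 ratio was 0.14 for the 162 genes and −0.35 for the others. Among the 20 highest genes 10 were over 2-fold higher and 8 over 2-fold lower. Leaf replicate 3 is part of the mean that ranks them, so a gene very high in it could enter the 20 through that value. The excess over other genes at 2-fold was thus on the higher side alone. Beyond 4-fold it was on both sides, with 10.5% of the 162 genes higher and 8.64% lower in leaf replicate 3, against 3.11% and 3.32% of the other genes. The sign of the median ratio of the 162 genes depends on the scaling. It was 0.69 over library sizes scaled with TMM factors (trimmed mean of M-values), where the other genes on in leaf stood at 0.20. In raw counts it was −0.67, where those others stood at −1.14.

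**Figure D3:**
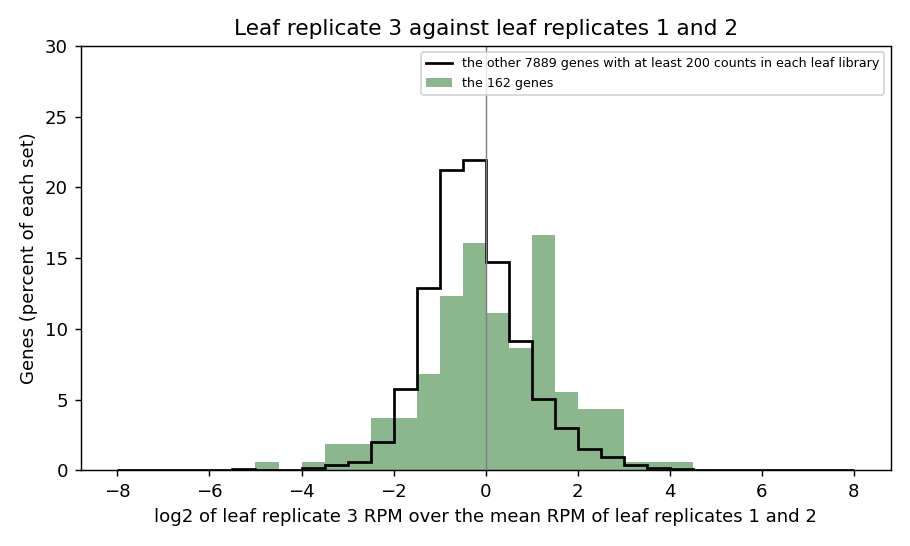
Share of genes (vertical, percent) by the log2 ratio of leaf replicate 3 RPM to the mean RPM of leaf replicates 1 and 2 (horizontal, bins of 0.5), for the 162 genes (green bars) and the 7889 other genes with at least 200 counts in each leaf library (black line). The green bars hold more genes at both far ends, with 19.1% of genes beyond 4-fold against 6.43%.

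The largest excess in leaf replicate 3 was in VIT_204s0008g05640, at 789 RPM against 49.0 and 46.7 RPM in leaf replicates 1 and 2, 16.5 times their mean. VIT_200s0181g00180 was next at 15 times, then VIT_215s0048g02500 with 9.08, VIT_200s0878g00020 with 7.44 and VIT_218s0001g14450 with 7.40. VIT_200s0878g00020 had 0, 2 and 2 counts in EC against 672, 516 and 2538 in leaf. VIT_218s0001g14450 had 0, 3 and 1 counts in EC against 1589, 1028 and 5542 in leaf. In each of them leaf replicates 1 and 2 were near each other and far above EC.

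The largest deficit was in VIT_209s0018g01800, at 20.7 RPM in leaf replicate 3 against 526 and 742 RPM in leaf replicates 1 and 2, or 30.6-fold lower than their mean. VIT_207s0151g00340 was 14.2-fold lower, VIT_213s0019g01830 10.4-fold, VIT_214s0066g00050 10.1-fold and VIT_212s0059g01830 8.79-fold. VIT_207s0151g00340 had 1 count in each EC library against 6904, 5245 and 245 in leaf. VIT_213s0019g01830 had 1, 0 and 2 counts in EC against 5723, 4375 and 278, and VIT_212s0059g01830 had 0, 2 and 0 counts in EC against 6989, 4591 and 377. All 5 lay not far above the limit of 200 counts in leaf replicate 3.

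The gene with the most even leaf level was VIT_206s0004g01390, at 39.6, 36.9 and 38.9 RPM in leaf replicates 1, 2 and 3 with no EC count. The leaf libraries spanned less than 2-fold in 69 of the 162 genes and more than 10-fold in 7, with a median span of 2.21-fold. By the shape of its leaf values, the gene with the highest mean, VIT_213s0019g04140, was nearest to VIT_200s0878g00020, VIT_201s0026g02480 and VIT_213s0106g00060. Their distances were 0.10, 0.18 and 0.19 in log2 RPM over the 3 leaf libraries, against a median distance of 2.18 to all the genes. These 3 genes were picked as the nearest, so their distances lie below the median by construction. VIT_201s0026g02480 had 1, 1 and 0 counts in EC against 1892, 1682 and 6338 in leaf. VIT_213s0106g00060 had 0, 3 and 0 counts in EC against 256, 231 and 872 in leaf.

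Each library can be read for genes chosen without it. Chosen on the other 5 libraries, 173, 179 and 177 genes were found without EC replicates 1, 2 and 3. Of these, 93.6%, 90.5% and 91.5% also had at most 3 counts in the EC library left out, whose highest count was 7, 14 and 13. Without leaf replicate 1 the rule found 167 genes, of which 97.0% had at least 200 counts in it, and without leaf replicate 2 it found 171, of which 94.7% had at least 200. In those 2 leaf libraries the lowest count was 70 and 60, so every gene so chosen was read in the library that had not chosen it. Silence in EC and expression in leaf were thus repeated closely in any of these 5 libraries. The same shares were not taken over other genes, so they describe the likeness of the libraries as much as these genes.

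Leaf replicate 3 differed. Without it the rule found 488 genes, and 162 of these (33.2%) had at least 200 counts in leaf replicate 3. Of the rest, 77 had 100 to 199 counts, 193 had 4 to 99 and 56 had at most 3. The median ratio of leaf replicate 3 to the mean of leaf replicates 1 and 2 was 0.249 in RPM over the 488 genes. Over the 12307 other genes with at least 200 counts in leaf replicates 1 and 2 it was 0.629. Leaf replicate 3 was over 10-fold lower in 31.1% of the 488 genes and in 5.50% of the others. In 460 of the 488 genes its RPM lay above that of every EC library, and in 3515 of the 12307 others. The rule holds EC to at most 3 counts in the 488 genes alone, so there a few reads in leaf replicate 3 were enough. The 2 numbers are thus not alike, and the first supports nothing. With 1 library left to read, the values of this paragraph have no replicate and no test.

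Named after their values had been seen, the 3 genes with at most 3 counts in leaf replicate 3 and the highest mean RPM in the other leaf libraries were VIT_204s0023g02230, VIT_207s0130g00030 and VIT_215s0048g01200. VIT_204s0023g02230 had 0 counts in each EC library, against 4017, 6424 and 1 counts in leaf replicates 1, 2 and 3. VIT_207s0130g00030 had 1, 0 and 0 counts in EC against 5211, 4410 and 1 in leaf. VIT_215s0048g01200 had 0 counts in each EC library against 2256, 4624 and 2 in leaf. For these genes leaf replicate 3 was at the level of EC.

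In edgeR's quasi-likelihood test across all genes and transposable element (TE) families, with Benjamini-Hochberg adjustment, 25.3% of the 21336 genes in the test were called lower in EC, which asked for an adjusted p under 0.05 together with a fitted level at least 2-fold lower. All 162 genes passed the low-count filter and all 162 were called. The rule chose them on these same counts, so the number called supports nothing. DESeq2 called 153 and gave the other 9 no adjusted p. The reverse rule, at most 3 counts in each leaf library and at least 200 in each EC library, found 42 genes, which is 0.336% of the 12509 genes with at least 200 counts in each EC library, against 2.01% for the rule described here. The 2 shares rest on different numbers of counted reads, since 3 counts are a larger RPM in leaf replicate 3. The reverse rule left out no identifiers by prefix, unlike the rule described here. The shares were not tested against each other.

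The 162 genes lay on all 19 chromosomes and among the identifiers with 00 in place of a chromosome. Chromosome 1 held 16 of them, chromosome 18 held 14, chromosome 11 held 13, chromosome 13 held 11 and chromosome 14 held 10, while chromosome 16 held 2 and chromosome 5 held 4. As a share of genes with at least 200 counts in each leaf library, chromosome 11 had 3.29%, chromosome 1 had 3.13%, chromosome 5 had 0.901% and chromosome 16 had 0.791%, against 2.01% over all chromosomes. The 2 prefixes left out by the rule lie on chromosomes 16 and 10, and their genes are in neither number. At 2 to 16 genes per chromosome these shares are coarse, and they were not tested.

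**Figure D4:**
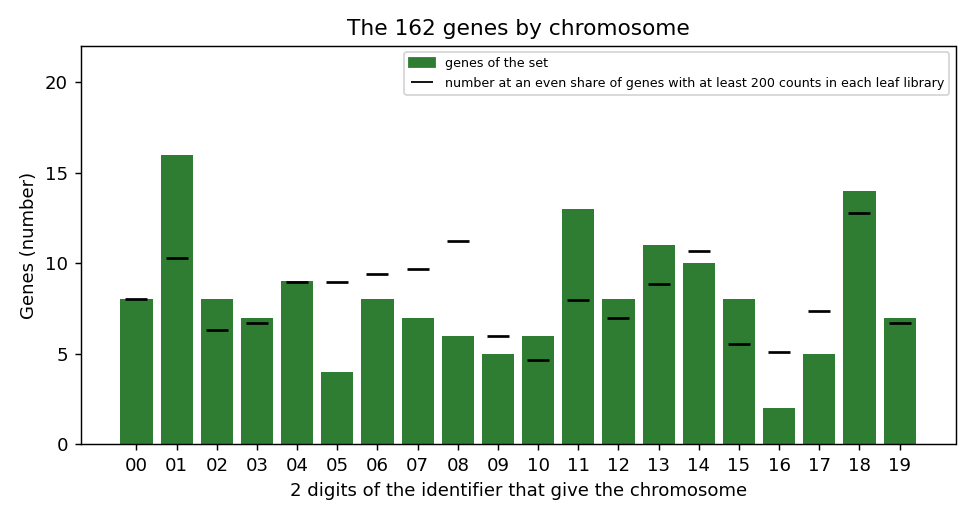
Number of the 162 genes (green bars, vertical) by the 2 digits of the identifier that give the chromosome (horizontal), with a black dash at the number that an even share of the genes with at least 200 counts in each leaf library would give. The bars stand above the dash at chromosome 1 (16 genes) and chromosome 11 (13) and below it at chromosome 5 (4), chromosome 8 (6) and chromosome 16 (2).

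By scaffold, the genes fell on 76 scaffolds, of which 41 held a single one. VIT_218s0001, the scaffold with the most, held 10 of its 463 genes on in leaf (2.16%), and VIT_204s0008 held 9 of 239 (3.77%). VIT_201s0137 was small and comparatively rich, with 5 of its 33 genes on in leaf (15.2%). Higher shares rested on fewer genes, as in VIT_213s0106 with 2 of 8 (25%) and VIT_218s0117 with 2 of 9 (22.2%). These scaffolds were picked after their shares were seen, and the shares were not tested. Only 1 of the 162 identifiers, VIT_218s0001g10605, had a g number that does not end in 0, against 6.23% of all gene rows.

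Most of the genes had no neighbour in the set. Taking neighbours as consecutive gene rows on a scaffold, 4 pairs of neighbours were both in the set, which is 8 of the 162 genes (4.94%), and no run was longer than 2. Of the 320 rows next to the genes, 8 (2.50%) held another of them, against 0.509% of all gene rows that were in the set. The difference was not tested.

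On chromosome 1, VIT_201s0011g02710 had 2, 1 and 0 counts in EC against 3550, 2893 and 1574 in leaf. Its neighbour VIT_201s0011g02720 had 0 counts in each EC library against 1409, 1063 and 1440 in leaf. The next row, VIT_201s0011g02730, had 0, 3 and 0 counts in EC against 643, 500 and 54 in leaf, and missed the rule in leaf replicate 3 alone. On the other side VIT_201s0011g02700 had 1 count over the EC libraries and none in leaf.

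On chromosome 6, VIT_206s0004g01380 had 0, 1 and 2 counts in EC against 2717, 3660 and 2818 in leaf. VIT_206s0004g01390, the gene with the most even leaf level, had 0 counts in each EC library against 936, 808 and 510 in leaf. The row after the pair, VIT_206s0004g01400, was also low in EC, with 7, 9 and 6 counts against 336, 381 and 211 in leaf. The row before it, VIT_206s0004g01370, was not, with 235, 182 and 246 counts in EC against 131, 102 and 28 in leaf.

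On chromosome 11, VIT_211s0016g05830 had 0, 1 and 0 counts in EC against 944, 637 and 383 in leaf. VIT_211s0016g05840 had 1, 0 and 1 counts in EC against 2965, 1843 and 765 in leaf. VIT_211s0016g05820, the row before, was read in both tissues, with 1653, 1710 and 1854 counts in EC against 1231, 1185 and 733 in leaf. VIT_211s0016g05850, the row after, was read in neither, with 1, 0 and 3 counts in EC and 0 in each leaf library.

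On chromosome 18, VIT_218s0117g00070 had 2, 1 and 2 counts in EC against 1108, 1032 and 1294 in leaf. VIT_218s0117g00080 had 1, 0 and 0 counts in EC against 1725, 1620 and 1347 in leaf. VIT_218s0117g00060, before them, had 45, 23 and 28 counts in EC against 2160, 2221 and 1873 in leaf, so the 3 consecutive rows shared a high leaf and a low EC level. Neighbours with near-identical sequence could share reads, and since no sequences were compared, the split of reads within these pairs is uncertain.

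**Figure D5:**
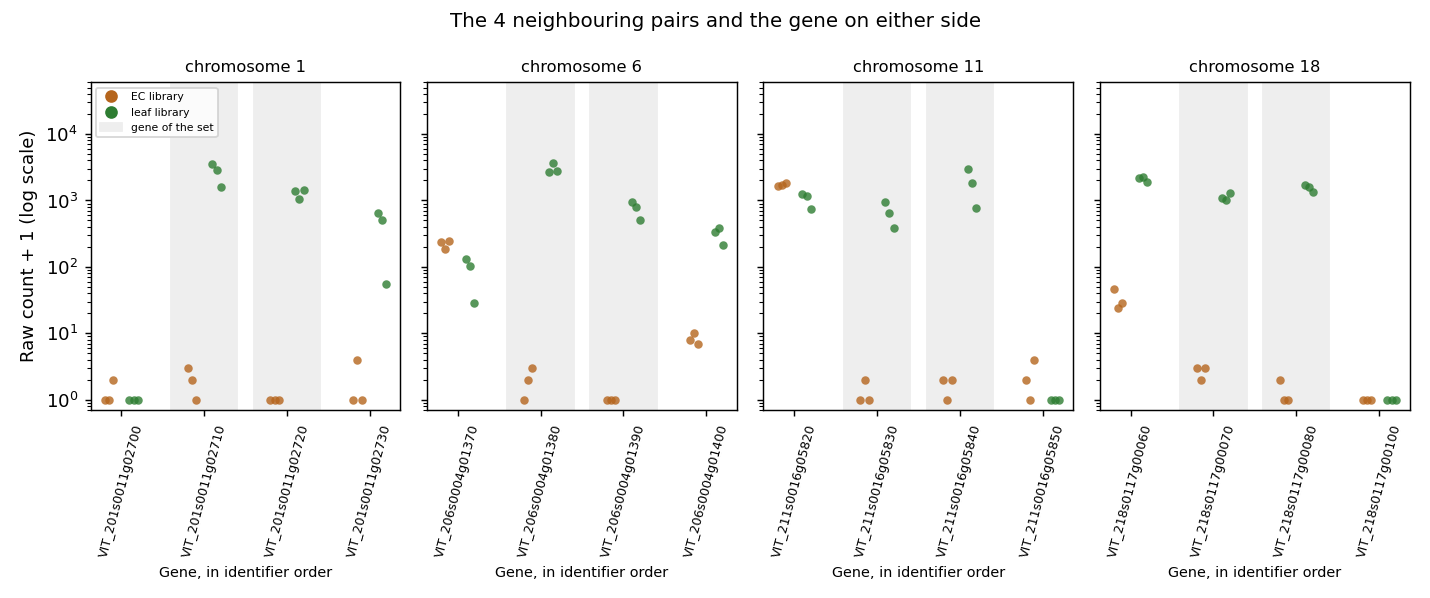
Raw count + 1 (log scale, vertical) of the 4 neighbouring pairs (grey bands) and the gene row on either side (horizontal, in identifier order), with EC libraries in brown and leaf libraries in green, 1 panel per pair. Within the bands EC lies at 0 to 2 counts and leaf at 383 to 3660, and the rows outside range from no count in either tissue to 1854 counts in EC.

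With 1 other gene row allowed in between, 3 more pairs came in. On chromosome 14, VIT_214s0066g00050 had 1, 1 and 2 counts in EC against 7014, 5621 and 359 in leaf, and VIT_214s0066g00070 is given above. The row between them, VIT_214s0066g00060, had 0 counts in each EC library against 3019, 2256 and 93 in leaf, and VIT_214s0066g00010, before them, had 1, 0 and 0 counts in EC against 900, 810 and 146 in leaf. All 4 rows were lowest in leaf replicate 3 and at most 2 counts in EC. They formed the longest run, of 4 rows, among the genes found without leaf replicate 3. No gene row stands between VIT_214s0066g00010 and VIT_214s0066g00050, but their g numbers are not adjacent, so the length of this run rests on row order.

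On chromosome 1, VIT_201s0137g00390 and VIT_201s0137g00410, each with 0 counts in every EC library, enclosed VIT_201s0137g00400, with 4, 3 and 1 counts in EC against 350, 275 and 65 in leaf. On chromosome 2, VIT_202s0033g01000 and VIT_202s0033g01020 enclosed a gene that was read in both tissues, VIT_202s0033g01010, with 188, 193 and 208 counts in EC against 482, 345 and 346 in leaf. The stretch on chromosome 4 that holds VIT_204s0008g04060 was also chosen after its values were seen. VIT_204s0008g04050 beside it is given above. VIT_204s0008g04020, a few rows before, had 6, 4 and 2 counts in EC against 52327, 46848 and 2365 in leaf. The stretch was not unbroken. VIT_204s0008g04030 had 0 counts in every library, and VIT_204s0008g04040 had 0 counts in each EC library against 322, 6 and 0 in leaf. VIT_204s0008g04010, before them, had 175, 215 and 192 counts in EC against 124, 122 and 11 in leaf.

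The number of neighbours changed with leaf replicate 3, and so did the size of the set. Without that library, 72 of the 488 genes (14.8%) had a neighbour in the set, against 8 of the 162 (4.94%). A larger set holds more neighbours by its size alone, so these shares cannot be compared directly. The 72 genes lay in 34 runs, of which 31 were pairs, 2 were runs of 3 and 1 was the run of 4 on chromosome 14. The runs of 3 were VIT_201s0011g02710 to VIT_201s0011g02730, described above, and VIT_216s0022g02370 to VIT_216s0022g02400. In the second of these VIT_216s0022g02380 had 0 counts in each EC library against 686, 587 and 128 in leaf. VIT_216s0022g02400 had 0 counts in each EC library against 737, 804 and 143 in leaf. VIT_216s0022g02370 had 2, 1 and 3 counts in EC against 336, 394 and 40 in leaf. Runs were taken by row order, and the g numbers of VIT_216s0022g02380 and VIT_216s0022g02400 are not adjacent.

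The rows next to the 162 genes were more often lower in EC than other rows. Of the 309 neighbouring rows that were not in the set, 35.9% had at most 3 counts in each EC library, against 30.9% of all 31681 gene rows outside the set. At least 200 counts in each leaf library were found in 26.9% of the neighbours and 25% of the rows outside the set. All EC libraries lay below all leaf libraries in RPM in 30.1% of the neighbours, against 19.0% of the rows outside the set, and above them in 27.5%, against 34.8%. Rows on a scaffold are not independent and the shares were not tested against each other.

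Beside the 10 highest genes, 9 of the 20 neighbouring rows had at least 200 counts in each EC library and 6 had at most 3. Over all gene rows outside the set the shares were near these, at 39.5% and 30.9%. VIT_213s0019g04130, next to the highest gene, had 925, 814 and 928 counts in EC against 713, 645 and 440 in leaf. VIT_208s0007g02250, next to the second, had 1121, 1010 and 1181 counts in EC against 289, 268 and 100 in leaf. VIT_204s0008g05630 and VIT_204s0008g05650, on either side of VIT_204s0008g05640, were also read in both tissues, with lowest EC counts of 1277 and 749. In 2 of the 6 neighbours with at most 3 counts in each EC library there were more reads in leaf replicates 1 and 2. VIT_214s0083g00250, next to VIT_214s0083g00260, had 2, 0 and 0 counts in EC against 434, 666 and 3 in leaf. VIT_218s0001g10050, next to VIT_218s0001g10040, had 0, 0 and 2 counts in EC against 70, 57 and 2 in leaf. Several of the highest genes thus lay directly beside genes read in EC, which was common over all gene rows as well.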

How the data were processed

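RNA-seq counts of 3 EC and 3 leaf libraries were used. Per the study's methods, the authors trimmed the reads, filtered out tRNA and rRNA, aligned what remained to the PN40024 assembly with HISAT2, allowing multiple positions, and used TEtranscripts to count genes along with TE families. The strand setting of that counting is not given in the sources used here. The table the authors deposited holds raw, unnormalised counts of 31843 genes and 232 TE families in the 6 libraries. Reads of 2 chloroplast-like genes were not used here.

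RPM values took each count per 1000000 counted reads of its library. Genes and TE families were fitted with edgeR 4.0.16 in R 4.3.3 (filterByExpr with a minimum count of 10 and a minimum total of 15, TMM factors, glmQLFit with robust dispersion, glmQLFTest), and p-values were adjusted by Benjamini-Hochberg over all features tested. The code was tested on simulated data. Calls needed an adjusted p under 0.05 and at least a 2-fold change. Fold bounds were set against 3 counts per library, and intervals at 95% are exact Poisson intervals (scipy 1.17.1) of the summed EC counts. These intervals describe counting error alone, as PCR copies are not separate molecules. Replicates were separate tissue samples; whether they came from separate culture lines or vines is not given in the sources used here.

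Genes were named by a rule: the 10 with the highest mean leaf RPM, the 5 just inside the leaf limit and the 5 just outside each limit, the 5 highest and 5 lowest ratios of leaf replicate 3 to the others, neighbouring pairs with the rows beside them, and the 3 nearest in leaf pattern to the highest gene; others are named as seen afterwards or illustrate a count. The genes and lists were chosen with earlier results of these data known. Alternatives were DESeq2 1.42.0, limma-voom (limma 3.58.1), other scalings and filters, the replicate number as a block, other limits of the rule, other definitions of a neighbour, and each library left out; the levels and bounds without leaf replicate 3 were added after seeing the data. Figures were drawn with matplotlib 3.10.9.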

Additional observations from a re-analysis of the deposited data

How the results depend on the processing

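Which genes make up the set depends on the limits and on leaf replicate 3. The rule found 39 genes at 0 counts in each EC library, 252 at up to 10, 294 with at least 100 counts in each leaf library, 64 with at least 500, and 211 with counts scaled to the median library size, of which 152 were among the 162. With 1 library left out it found 167 to 488 genes, and genes with a neighbour in the set numbered 8 to 72, the high ends being those without leaf replicate 3; with a row allowed in between there were 14. The median log2 ratio of leaf replicate 3 to the other leaf libraries was 0.14 in RPM, 0.69 over TMM-scaled sizes, −0.67 in raw counts, and −2.01 over the 488 genes found without leaf replicate 3, an alternative chosen after seeing the data. Genes lower in EC numbered 5388 in edgeR, 3266 where 10 counts were required in every library, a filter that removes all 162 genes by construction, and 4195 to 6608 with a library left out. Without TMM factors the median log2 fold change over all genes tested was 0.40, against −0.05 with them. On plain library sizes 4373 genes were lower and 5699 higher in EC, against 5388 lower and 3682 higher with TMM factors. Of the 162 genes, 161 or 162 were called lower in EC with each library left out, and 153 by DESeq2, which gave the other 9 no adjusted p. With the replicate number as a block, 162 of the genes and 4677 of all genes were called. Samples with equal numbers correlated at −0.01, 0.10 and 0.10 in their deviations from the tissue mean, so the numbers were not taken to pair the samples. Every EC count here is 3 or less, so differences among the genes in EC were not detectable at this depth; without sequences, reads shared between similar genes are not known.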
